A study of Mus musculus with 12 samples.

Results

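The proteasome and MHC class I processing genes examined here were 51 of the 18601 genes in the data. They comprised every gene whose symbol starts with Psma, Psmb, Psmc, Psmd or Psme, with Tap1, Tap2, Tapbp, B2m, H2-K1 and H2-D1 added by name. No cutoff on a measured value entered this rule, but it was set with earlier results of these data known. The study transferred mouse Th1 cells into recipients and recovered CD4 T cells for droplet single-cell RNA sequencing. The transferred cells were either control, with the genotype Il23r wt/eGFP, or knockout (KO), with the genotype Il23r eGFP/eGFP, so both groups carried the eGFP allele of the interleukin-23 receptor gene. Strain, age, recipient genotype and time after transfer are not given in the labels. Spleen and colon lamina propria (colon LP) had 2 control and 2 KO libraries each, with replicate 1 in batch 1 and replicate 2 in batch 2. Small intestine lamina propria (small intestine LP) and colon epithelium had 1 control and 1 KO library each, in batch 2, which gives 12 libraries in all. The labels do not say that replicates came from separate animals, so the p-values measure the spread between samples, which may be technical.

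The proteasome is the barrel-shaped protease that degrades proteins marked with ubiquitin. Its 20S core is built of alpha rings and beta rings, and the 19S cap, with a ring of ATPases and a lid, binds, unfolds and feeds in the substrate. In immune cells and under interferon-gamma, the catalytic beta subunits Psmb5, Psmb6 and Psmb7 are replaced by Psmb8, Psmb9 and Psmb10 to give the immunoproteasome, and the activator Psme1-Psme2 (PA28) can dock in place of the cap. The peptides are carried into the endoplasmic reticulum by the transporter Tap1-Tap2, loaded with the help of Tapbp (tapasin) onto a class I heavy chain such as H2-K1 or H2-D1 paired with B2m (beta-2 microglobulin), and shown to CD8 T cells. Not every member that matched the symbol rule is a part of this machinery. Psmc3ip encodes a recombination factor, Psme2b is a near copy of Psme2, Psma8 and Psmb11 are 20S subunits known from testis and thymus, and Psmd5, Psmd9 and Psmd10 are chaperones that assemble the 19S base.

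All comparisons used unique molecular identifiers (UMIs, counts of distinct captured transcripts) summed per library over CD3-positive cells, defined as cells with 3 or more UMIs of Cd3d, Cd3e and Cd3g together. These were 29623 of 32763 cells (90.4%), with 764 to 3661 cells and 1902990 to 13248318 UMIs per library, and 50.6% of the cells in the small intestine LP KO library. Il23r itself gave 7 to 19 UMIs in the control and 3 to 33 in the KO libraries. The 3′ tags cannot check the labels unless they fall in the part of the gene that the eGFP allele changes, which was not analysed here. Cells with 2 or more UMIs of other cell types' markers made up 24.3% of CD3-positive cells in spleen KO 1, 10.0% in spleen KO 2 and 0.822% at the least (small intestine LP control). The summed CPM (a gene's UMIs scaled to a common library total) of 6 macrophage markers ran from 0 to 144, that of 5 NK and innate lymphoid markers from 3.89 to 132, both highest in spleen KO 1, and that of 6 epithelial markers from 3.11 to 369, highest in colon epithelium KO. The 6 T cell markers in the data summed to between 4221 and 6789 CPM in every library, the 2 CD8 markers to between 1.963 and 21.9. Erythroid markers ran from 0 to 1365, highest in colon LP control 1. In all, 677 cell barcodes occurred in more than 1 library (1363 cells, of 32077 distinct barcodes). The members took 1.99% to 2.54% of the UMIs of a library. The filter on low counts kept 49 of the 51, leaving out Psma8 and Psmb11, each of which had 0 or 1 UMI in every library.

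Promoter sequences are shown for 5 members on which the results below turn, as the 250 bases before the RefSeq transcription start (GRCm38.p6, on the strand of the gene). RefSeq windows were found for 43 of the 51 members. The letters of 3 short motifs were searched on both strands in windows of 300 bases, from 250 before to 50 after the start. The first was a core of the gamma-activated site (GAS, TTCNNNGAA), the second a core of the interferon-stimulated response element (ISRE, the letters GAAA, any 2 bases, then GAAA again) and the third a core of the antioxidant response element (ARE, TGANNNNGC), the kind of site through which Nfe2l1 is known to drive proteasome genes. The matched bases of the motif named for each gene are in capitals, and where the match is on the opposite strand they read as the reverse complement of the motif. The ARE letters matched in 59.57% of the 47 windows of members and in 41.34% of all 32851 windows. The ISRE letters matched in 10.64% of member windows (B2m, Psmb3, Psmd4, Psmd9 and Psme1) and in 3.443% of all windows, the GAS letters in 4.255% (Psmb8 and Psmd2) and 8.298%. Tap1 (ARE capitals, chr17:34187306-34187555, plus strand) is shown because it was lower in colon LP than in spleen and its promoter window overlaps that of Psmb9. B2m (ISRE capitals, chr2:122147437-122147686, plus strand) and Psmb8 (GAS capitals, chr17:34197945-34198194, plus strand) stand for class I genes that fell in cycling cells and for immunoproteasome genes that did not pass there. Psmd5 (ARE capitals, chr2:34870963-34871212, minus strand) and Psmd9 (ISRE capitals, chr5:123227940-123228189, plus strand) differed between the tissues in opposite directions. The 300-base windows of Psmd9 and Psmb8 also matched the ARE letters, which are not in capitals there.
Tap1: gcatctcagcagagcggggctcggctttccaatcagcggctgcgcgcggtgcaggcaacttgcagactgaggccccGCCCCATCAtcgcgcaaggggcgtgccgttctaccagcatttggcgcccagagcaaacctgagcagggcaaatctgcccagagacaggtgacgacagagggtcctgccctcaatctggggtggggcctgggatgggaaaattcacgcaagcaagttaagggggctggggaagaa
B2m: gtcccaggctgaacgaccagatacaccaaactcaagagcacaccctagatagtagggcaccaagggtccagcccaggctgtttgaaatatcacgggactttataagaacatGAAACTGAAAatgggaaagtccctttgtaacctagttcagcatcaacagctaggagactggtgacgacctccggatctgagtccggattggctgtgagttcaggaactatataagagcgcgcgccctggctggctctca
Psmb8: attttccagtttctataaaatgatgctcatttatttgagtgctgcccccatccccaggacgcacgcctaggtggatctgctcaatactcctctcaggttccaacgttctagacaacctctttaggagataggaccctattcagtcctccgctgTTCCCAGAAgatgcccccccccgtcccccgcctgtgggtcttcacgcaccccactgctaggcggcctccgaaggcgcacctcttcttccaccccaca
Psmd5: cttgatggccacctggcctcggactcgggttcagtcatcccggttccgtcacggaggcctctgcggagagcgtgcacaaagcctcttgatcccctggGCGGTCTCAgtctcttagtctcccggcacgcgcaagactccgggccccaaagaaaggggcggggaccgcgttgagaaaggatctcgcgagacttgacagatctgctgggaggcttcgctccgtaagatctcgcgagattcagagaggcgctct
Psmd9: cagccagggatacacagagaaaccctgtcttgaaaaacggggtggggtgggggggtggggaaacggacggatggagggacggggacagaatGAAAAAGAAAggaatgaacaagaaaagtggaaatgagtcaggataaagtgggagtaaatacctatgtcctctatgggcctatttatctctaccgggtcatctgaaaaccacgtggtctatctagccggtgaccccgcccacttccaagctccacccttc
A match is a description of the letters and shows neither binding nor a cause. Tap1 and Psmb9 lie head to head in the class II region of the MHC on chromosome 17, and their 300-base windows share 275 bases. In the GENCODE M21 annotation of the same build, exons of Psmb5, Psmd1, Psme2b and Tapbp overlap another gene on the same strand and exons of 15 members overlap a gene on the opposite strand (Tap1 and Psmb9 each other among them), so their counts depend on how the authors assigned such reads. The counts of Psme2 and Psme2b, and of H2-K1, H2-D1 and their class I paralogs, are uncertain in the same way because reads of near-identical copies can be split or lost.

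Levels are TMM-scaled CPM (TMM is the trimmed mean of M values, a library scaling), and are compared between libraries within a gene, never between genes. Over the 49 tested members, the highest library was between 1.26 times (Psmd11) and 7.10 times (Psme2b) the lowest, with a median of 1.65. Small intestine LP KO was the lowest library for most 19S subunits. Among the constitutive catalytic subunits, the level of Psmb5, which carries the chymotrypsin-like site, ran from 124 in small intestine LP KO over a median of 204 to 242 in spleen control 2. The level of its immunoproteasome counterpart Psmb8 ran from 741 in small intestine LP KO over a median of 978 to 1234 in spleen KO 2. The level of B2m ran from 4739 in spleen control 2 over a median of 6339 to 8244 in colon LP KO 1. For Psmb5 and Psmb8 the lowest library was small intestine LP KO and the highest a spleen library. The summed level of Psmb8, Psmb9 and Psmb10 over that of Psmb5, Psmb6 and Psmb7, a within-library ratio, was lowest in colon LP KO 1 and colon LP control 1 (log2 ratios of 0.82 and 1.003) and highest in colon epithelium KO (1.56). The spleen libraries lay between 1.296 and 1.504 and the batch 2 colon LP libraries at 1.22 (control) and 1.37 (KO). The 2 lowest values thus belonged to colon LP of batch 1. In batch 2 colon LP control also lay below every spleen library, and colon LP KO lay within the spleen range.

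**Figure D1:**
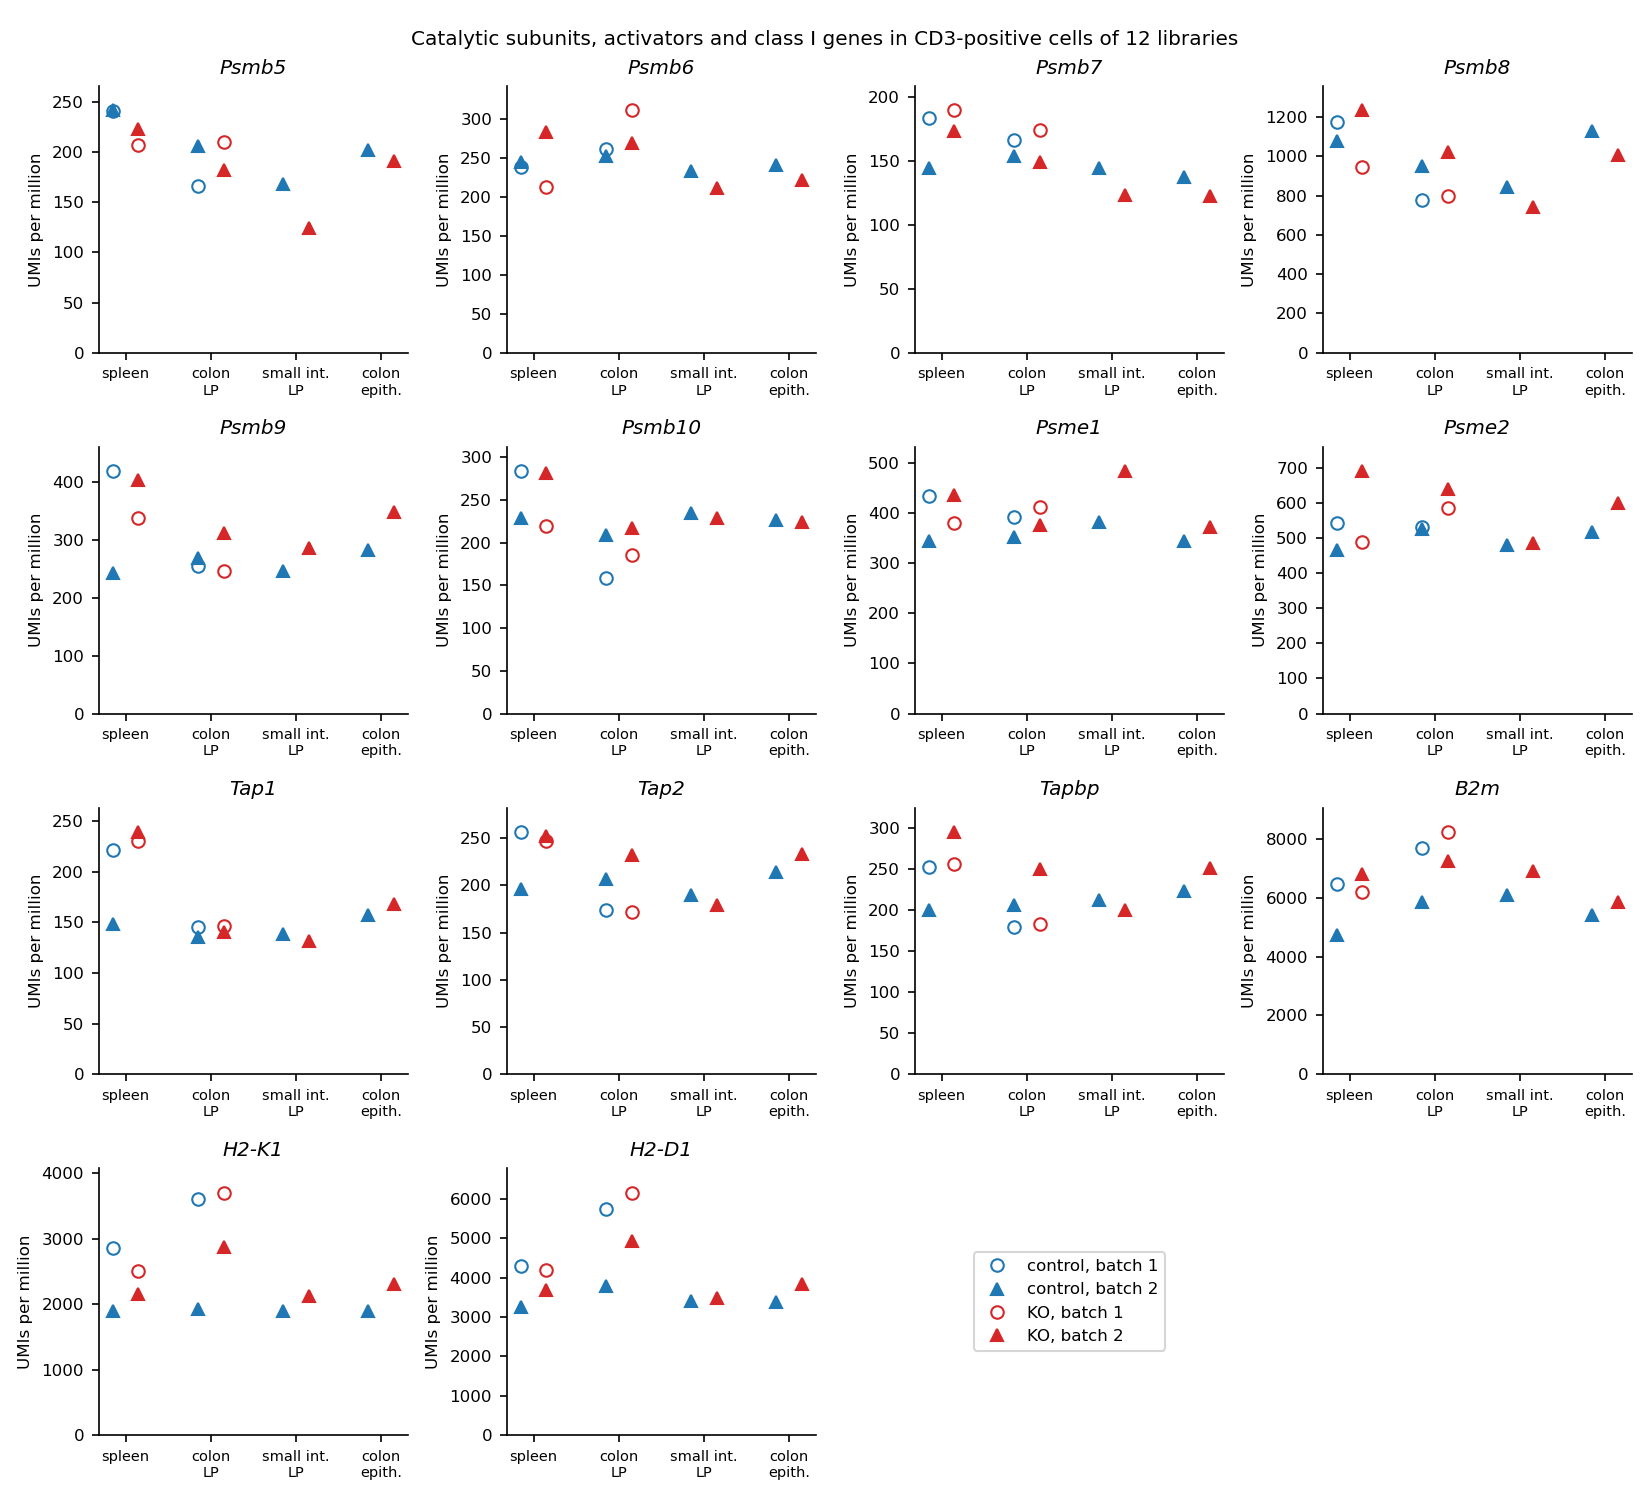
TMM-scaled CPM (vertical axis, from 0) of the 6 catalytic subunits, Psme1, Psme2, Tap1, Tap2, Tapbp, B2m, H2-K1 and H2-D1 in CD3-positive cells of the 12 libraries by tissue (horizontal axis), control in blue, KO in red, batch 1 as open circles and batch 2 as triangles. Control and KO points overlap for most genes, H2-K1 and H2-D1 are highest in the batch 1 colon LP libraries, and Tap1 is lower in all 4 colon LP libraries (135 to 146) than in all 4 spleen libraries (148 to 239).

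The first comparison asked whether loss of the interleukin-23 receptor changed these genes. In spleen and colon LP, no member passed an adjusted p of 0.05 in edgeR's quasi-likelihood test in either direction, with 49 members tested in each tissue (0% of all 10976 genes tested passed in either tissue). At an unadjusted p under 0.05 the counts were 0 members in both tissues and, of all genes, 123 in colon LP and 128 in spleen. DESeq2 likewise called 0 members in each, with 0 genes in colon LP and 3 in spleen among all genes. The KO effect in colon LP minus that in spleen gave 0 members and 0% of all genes (edgeR), 0 members and 114 genes at an unadjusted p under 0.05, and 0 members and 2 genes by DESeq2. Over all 12 libraries with tissue as a term, 0 members and 0% of 11305 genes passed (edgeR), with 0 members and 525 genes at an unadjusted p under 0.05 and 0 members and 3 genes by DESeq2.

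The differences were small and went both ways. The median log2 fold change of the members, KO over control, was 0.07 in colon LP (40 of 49 above 0) against 0.0044 for all genes, 0.06 in spleen (33 of 49) against 0.02, and -0.0016 over all tissues (24 of 49) against 0.0017. In the 12-library fit, all 6 class I transport and presentation genes lay above 0 (log2 fold changes of 0.08 to 0.19), all 4 non-catalytic beta subunits below 0 (-0.09 to -0.02) and 8 of 11 19S non-ATPase subunits below 0. None of these passed. B2m, the light chain that every classical class I molecule needs, had levels of 6470 and 4739 in spleen control and 6208 and 6795 in spleen KO. Its levels were 7687 and 5852 in colon LP control and 8244 and 7247 in colon LP KO. In the single libraries B2m stood at 6086 (control) and 6923 (KO) in small intestine LP and at 5409 and 5862 in colon epithelium. The KO library was the higher in 5 of 6 pairs, the exception being spleen in batch 1. The control and KO ranges overlapped in spleen and in colon LP. The replicates of a group there came from different batches, so that spread includes any difference between batches. The fit over all 12 libraries gave B2m a log2 fold change of 0.19 (SE 0.11, edgeR adjusted p = 1, and 0.609 with the replicate number as a block). Psme2, the PA28 beta subunit, had the smallest p of the members above 0 (0.18, SE 0.10, adjusted p = 1), and Psmd13, a lid subunit, of those below 0 (-0.20, SE 0.13, adjusted p = 1). Psmb5 had log2 fold changes of -0.17 (SE 0.17) in spleen and 0.09 (SE 0.17) in colon LP, and Psmb8 of -0.05 (SE 0.22) and 0.09 (SE 0.22), all with an adjusted p of 1.

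The 6 pairs of a KO and a control library from the same tissue and batch did not point the same way. Of the 49 members, 18 were higher in KO in spleen of batch 1 and 42 in colon LP of batch 1. In batch 2 the counts were 39 in spleen, 21 in colon LP, 14 in small intestine LP and 13 in colon epithelium. The share of all 11305 genes higher in KO was between 47.5% and 52.3% in these pairs. The 7 alpha subunits of the 20S core were higher in KO in 3, 7, 7, 2, 1 and 0 cases in that order of pairs, and the 6 class I genes in 2, 5, 6, 6, 3 and 6. With library totals in place of TMM the members higher in KO numbered 23, 42, 39, 15, 7 and 19, where 41.6% to 56.2% of all genes were, and in colon epithelium 3 of 7 alpha subunits and 6 of 6 class I genes lay above the control. Whether the roles differ was not tested. Psmb9 showed the widest span among the catalytic subunits, with log2 KO-to-control ratios of -0.31 in spleen and -0.04 in colon LP of batch 1, and of 0.73 and 0.21 in batch 2. Its head-to-head neighbour Tap1 had ratios of 0.06 and 0.005 in batch 1 and of 0.69 and 0.06 in batch 2. Psmd5, a 19S assembly chaperone, was lower in KO in 6 of 6 pairs, by log2 ratios between -0.28 and -0.003.

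**Figure D2:**
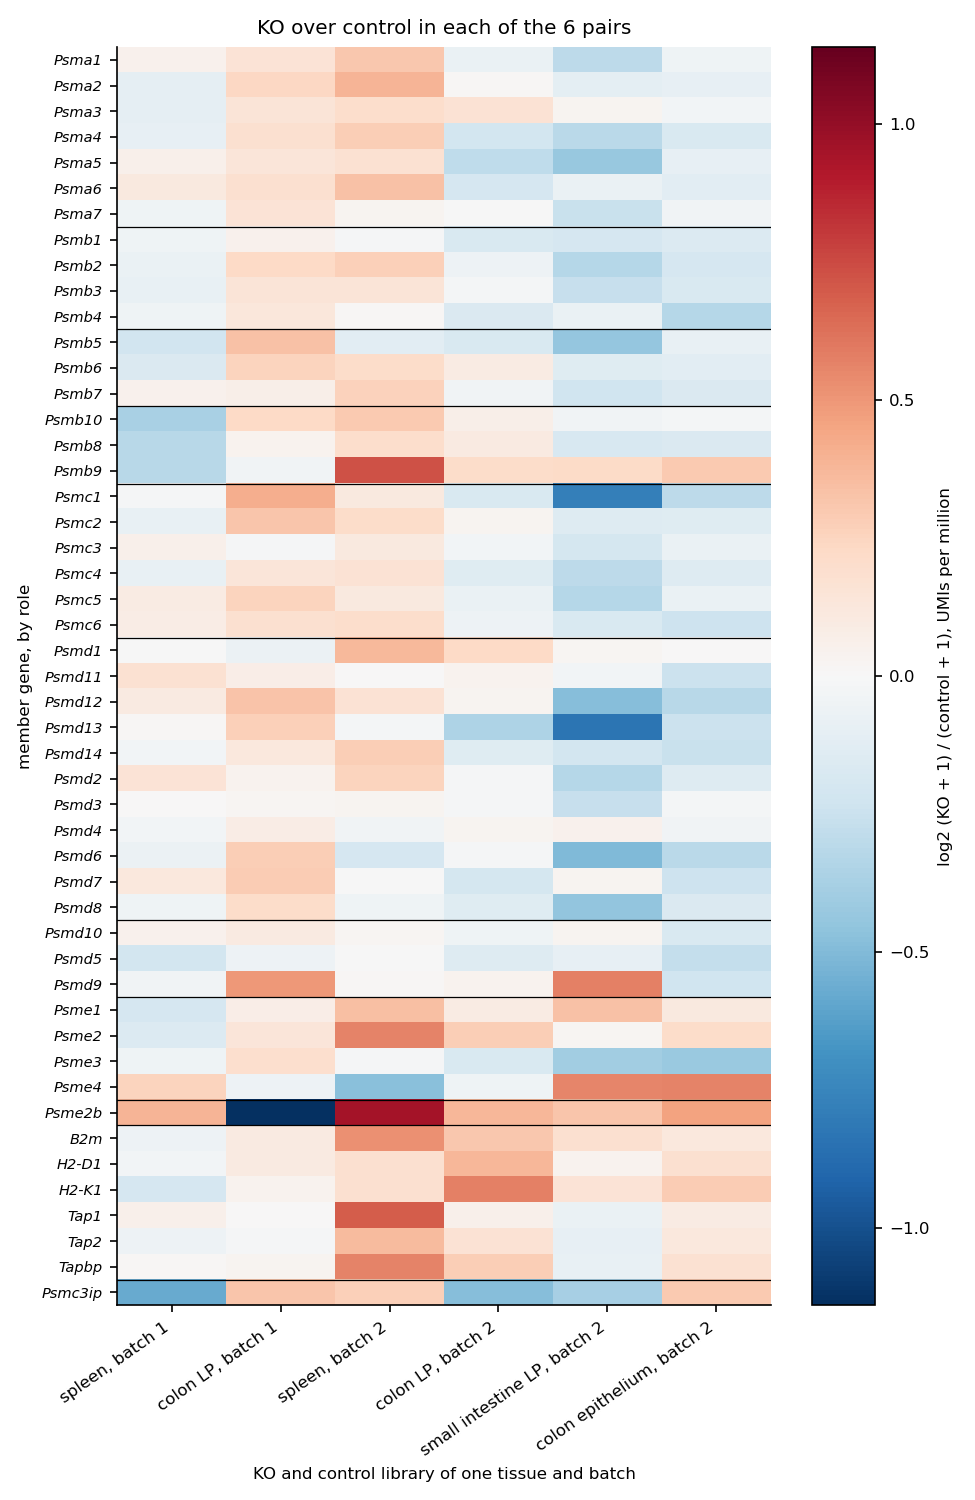
Log2 ratio of KO over control (colour, red for higher in KO and blue for lower, with a pseudocount of 1 added to both levels) of the 49 tested members (rows, grouped by role) in the 6 pairs of libraries of the same tissue and batch (columns). Colon LP of batch 1 and spleen of batch 2 are mostly red (42 and 39 members), small intestine LP and colon epithelium mostly blue (14 and 13 members higher in KO, or 7 and 19 with library totals in place of TMM), and the class I rows of colon epithelium are red.

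After these pairs had been seen, the KO effect in batch 2 minus that in batch 1 was tested over the 8 spleen and colon LP libraries. No member and 0% of all genes passed (edgeR), with 1 member and 373 genes at an unadjusted p under 0.05, and DESeq2 called 0 members and 12 genes. The member was Psmb9, with a difference of 0.65 on the log2 scale (SE 0.28, edgeR adjusted p = 1). All 6 class I genes (median 0.38) and all 3 immunoproteasome catalytic subunits (median 0.31) lay above 0, against a median of 0.01 for all genes, and none passed. In the same contrast the 19 interferon-stimulated genes had a median of 0.68 with 18 above 0, the macrophage markers a median of 1.78 with 4 of 5 above 0 and the erythroid markers lay above 0 in 3 of 3, with none of these lists past the threshold. The part of these markers in the values of the members was not tested.

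Other genes of the pathway, from lists, were also not called under KO. None of the 8 loading and trimming genes, 11 other class I heavy chains, 14 proteasome assembly and regulation genes, 11 ubiquitin and shuttle genes, 13 interferon signalling genes and 19 interferon-stimulated genes passed in spleen, in colon LP or over all tissues. Over all tissues 10 of 11 other heavy chains (median log2 fold change 0.21), 9 of 11 ubiquitin and shuttle genes (0.19) and 18 of 19 interferon-stimulated genes (0.35) lay above 0. The smallest p in the ubiquitin list was that of Ube2l6, the enzyme that conjugates Isg15, at a log2 fold change of 0.88 (SE 0.19, edgeR adjusted p = 1). Iigp1, an interferon-inducible GTPase, had a log2 fold change of 0.998 (SE 0.24, adjusted p = 1) in the same fit.

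For small intestine LP and colon epithelium there is 1 library of each genotype, so the KO and control libraries can be set side by side without a test. The ratios below are of plain CPM with exact 95% intervals that cover counting error only. How often an interval leaves out 1 depends on the UMIs behind it, so these counts are a description. In colon epithelium, 11 of 49 members had an interval above 1 (20.8% of all 11305 genes did), 17 below 1 (15.8% of all genes) and 21 that included 1. Psmb9 was at 306 in the control and 393 in the KO library, a ratio of 1.28 (1.23 to 1.35). H2-K1 was at 2041 and 2605, a ratio of 1.276 (1.253 to 1.299), and B2m at 5845 and 6632, a ratio of 1.135 (1.122 to 1.147). Psmb8 went the other way, at 1220.2 and 1140.5, a ratio of 0.935 (0.912 to 0.958). Cells with other cell types' markers made up 0.985% of CD3-positive cells in the colon epithelium control and 4.58% in the KO library. The NK and innate lymphoid markers summed to 3.89 and 70.9 CPM there, and the epithelial markers to 26.0 and 369. The part of such cells in the colon epithelium ratios was not tested. In small intestine LP, 5 of 49 members had an interval above 1 (9.99% of all genes did), 23 below 1 (14.4% of all genes) and 21 that included 1. Psmd13 was at 117 in the control and 63.1 in the KO library there, a ratio of 0.539 (0.441 to 0.655). Psmc1, an ATPase of the cap, was at 73.4 and 41.0, a ratio of 0.558 (0.433 to 0.711), and Psmd9 at 43.9 and 63.6, a ratio of 1.45 (1.16 to 1.80). On this scale 7 of 49 members were above the control in the small intestine LP KO library, where 45.3% of all genes were, and B2m was among them at a ratio with an interval of 1.078 to 1.123. That library was also the shallowest, with 50.6% CD3-positive cells, and had the lowest share of cycling cells, 2.21%, against 8.60% in its control (2.03% and 5.28% with cells thinned to 1500 UMIs). The part of either in these ratios was not tested.

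Between tissues, colon LP and spleen gave the most member calls, and most of them were lower in colon LP. Of 49 members, 2 were higher in colon LP (16.6% of all 10976 genes were) and 5 were lower (13.1% of all genes), so 7 changed where 29.7% of all genes did. The members' median log2 fold change was -0.06, against -0.0014 for all genes. The level ranges of the 4 colon LP and 4 spleen libraries did not overlap for 16 members, 4 above and 12 below, or 32.7% of the members where 37% of all genes did not overlap. The 7 calls are a smaller share of the members than 29.7%, and whether the shares differ was not tested.

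The strongest calls fell on 2 chaperones that put the 19S base together and went in opposite directions. Psmd5 stood at 47.7, 41.2, 41.0 and 41.0 CPM in the spleen libraries and at 21.7, 20.8, 30.2 and 27.3 in the colon LP libraries. It fell by 0.73 on the log2 scale (SE 0.16, edgeR adjusted p = 0.0123). Psmd9 stood at 36.0, 34.9, 40.5 and 40.9 in spleen and at 50.2, 70.9, 58.9 and 60.4 in colon LP. It rose by 0.70 (SE 0.13, adjusted p = 0.00658). For both genes every colon LP library lay on the same side of every spleen library, in both genotypes and both batches. Psmd10, the other chaperone of the base, had 45.1 ± 1.75 in colon LP against 52.5 ± 2.76 in spleen (SD, n = 4 each) and did not pass. The call of Psmd5 was lost only without spleen control 1 (adjusted p = 0.0512) among 18 alternatives, and that of Psmd9 only with library totals in place of TMM (0.44, adjusted p = 0.0693).

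Among the 19S subunits, Psmd1, the large scaffold of the base, stood at 67.5, 67.4, 61.9 and 80.2 in spleen and at 40.8, 38.9, 44.0 and 51.8 in colon LP. It fell by 0.61 (SE 0.14, adjusted p = 0.0134), with no overlap between the tissues. Psmd7, the lid partner of the deubiquitinase Psmd14, fell by 0.48 (SE 0.12, adjusted p = 0.0213), from 118 ± 4.94 in spleen to 81.5 ± 9.18 in colon LP (SD, n = 4 each). In the 20S core the alpha subunit Psma4 fell by 0.42 (SE 0.13, adjusted p = 0.0422), from 278 ± 25.3 to 200.4 ± 21.9. Psme4, the nuclear activator PA200, rose by 0.67 (SE 0.20, adjusted p = 0.0357) at low levels, from 6.93 ± 1.203 to 10.6 ± 0.713, on 40 to 123 UMIs per library. None of the 6 ATPases and none of the 4 non-catalytic beta subunits passed. Of 18 alternatives, Psmd1 passed in 16, Psmd7 in 11, Psme4 in 7 and Psma4 in 6.

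In the class I branch, Tap1 stood at 221, 231, 148 and 239 in spleen and at 145, 146, 135 and 141 in colon LP. It fell by 0.51 (SE 0.15, adjusted p = 0.0377), and the lowest spleen library, control 2, stood just above the highest colon LP library. The call held in 12 of 18 alternatives and was lost without any of the 6 libraries spleen control 1, spleen KO 1, spleen KO 2, colon LP KO 1, colon LP control 2 or colon LP KO 2. Its partner Tap2 (-0.23, SE 0.15, adjusted p = 0.271) and Tapbp (-0.25, SE 0.15, adjusted p = 0.248) did not pass. The 3 immunoproteasome subunits lay between -0.35 and -0.28 and did not pass, with an adjusted p of 0.116 for Psmb10, 0.212 for Psmb8 and 0.22 for Psmb9. The presenting chains lay above 0, B2m at 0.31 (SE 0.18, adjusted p = 0.23), H2-K1 at 0.41 (SE 0.25, adjusted p = 0.244) and H2-D1 at 0.46 (SE 0.20, adjusted p = 0.12). With the replicate number as a block, H2-D1 passed (0.45, SE 0.12, adjusted p = 0.0187).

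The 4 spleen libraries also held more cycling cells. All 10 cycling genes lay below 0 in colon LP (median -1.63, 2 of them past the threshold), and cells with 2 or more cycling UMIs made up 11.04% to 24.6% of CD3-positive cells in spleen and 5.21% to 10.8% in colon LP (9.46% to 18.5% and 1.67% to 7.54% with cells thinned to 1500 UMIs). In cells with 0 cycling UMIs, 6 of the 7 members passed and Psma4 did not (-0.38, adjusted p = 0.0723), where 3074 of 10410 genes passed. The epithelial markers were higher in colon LP (4 of 4 tested above 0, 2 passing), and 5 of 5 macrophage markers were below 0 with none passing. Without cells that held other cell types' markers, 5 of 49 members and 3146 of 10877 genes passed. With library totals in place of TMM, the median of all genes moved to -0.25 and that of the members to -0.32, so the members' position relative to all genes changed little. The calls then were 9 lower and 0 higher for members and 1197 higher and 2288 lower for all genes, where TMM gave 1825 and 1437.

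Among the pathway lists, Ubb, a polyubiquitin gene, rose by 1.44 (SE 0.26, adjusted p = 0.00558) in colon LP, and Uba1, the ubiquitin-activating enzyme, fell by 0.40 (SE 0.13, adjusted p = 0.0492). Of 8 loading and trimming genes, the cytosolic peptidase Tpp2 rose (0.66, SE 0.12, adjusted p = 0.00521), and the trimming peptidase Erap1 fell (-0.57, SE 0.14, adjusted p = 0.0176). Of 11 other class I heavy chains, H2-Q6 (1.27, SE 0.30, adjusted p = 0.0201) and H2-Q4 (1.22, SE 0.35, adjusted p = 0.0368) rose and Cd1d1, which presents lipids, fell (-0.98, SE 0.18, adjusted p = 0.00602). Of 14 assembly and regulation genes, Ddi2, the protease that activates Nfe2l1, rose (0.65, SE 0.19, adjusted p = 0.0345), and Ngly1, the deglycosylase that acts on Nfe2l1, fell (-0.57, SE 0.13, adjusted p = 0.0144). Of 13 interferon signalling genes 4 rose and none fell, led by Socs1 (1.28, SE 0.14, adjusted p = 0.00068), Ifng (2.47, SE 0.28, adjusted p = 0.000961) and Ifngr1 (2.33, SE 0.28, adjusted p = 0.00107). Of 19 interferon-stimulated genes 4 fell and none rose, among them the GTPases Ifi47 (-1.25, SE 0.20, adjusted p = 0.00357) and Iigp1 (-1.29, SE 0.26, adjusted p = 0.00839). Ifng, Socs1, H2-Q4 and H2-Q6 were thus higher in colon LP, while Tap1 and these GTPases were lower. B2m, H2-K1 and H2-D1 lay above 0 without passing. Any link between Ifng and these genes was not tested.

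**Figure D3:**
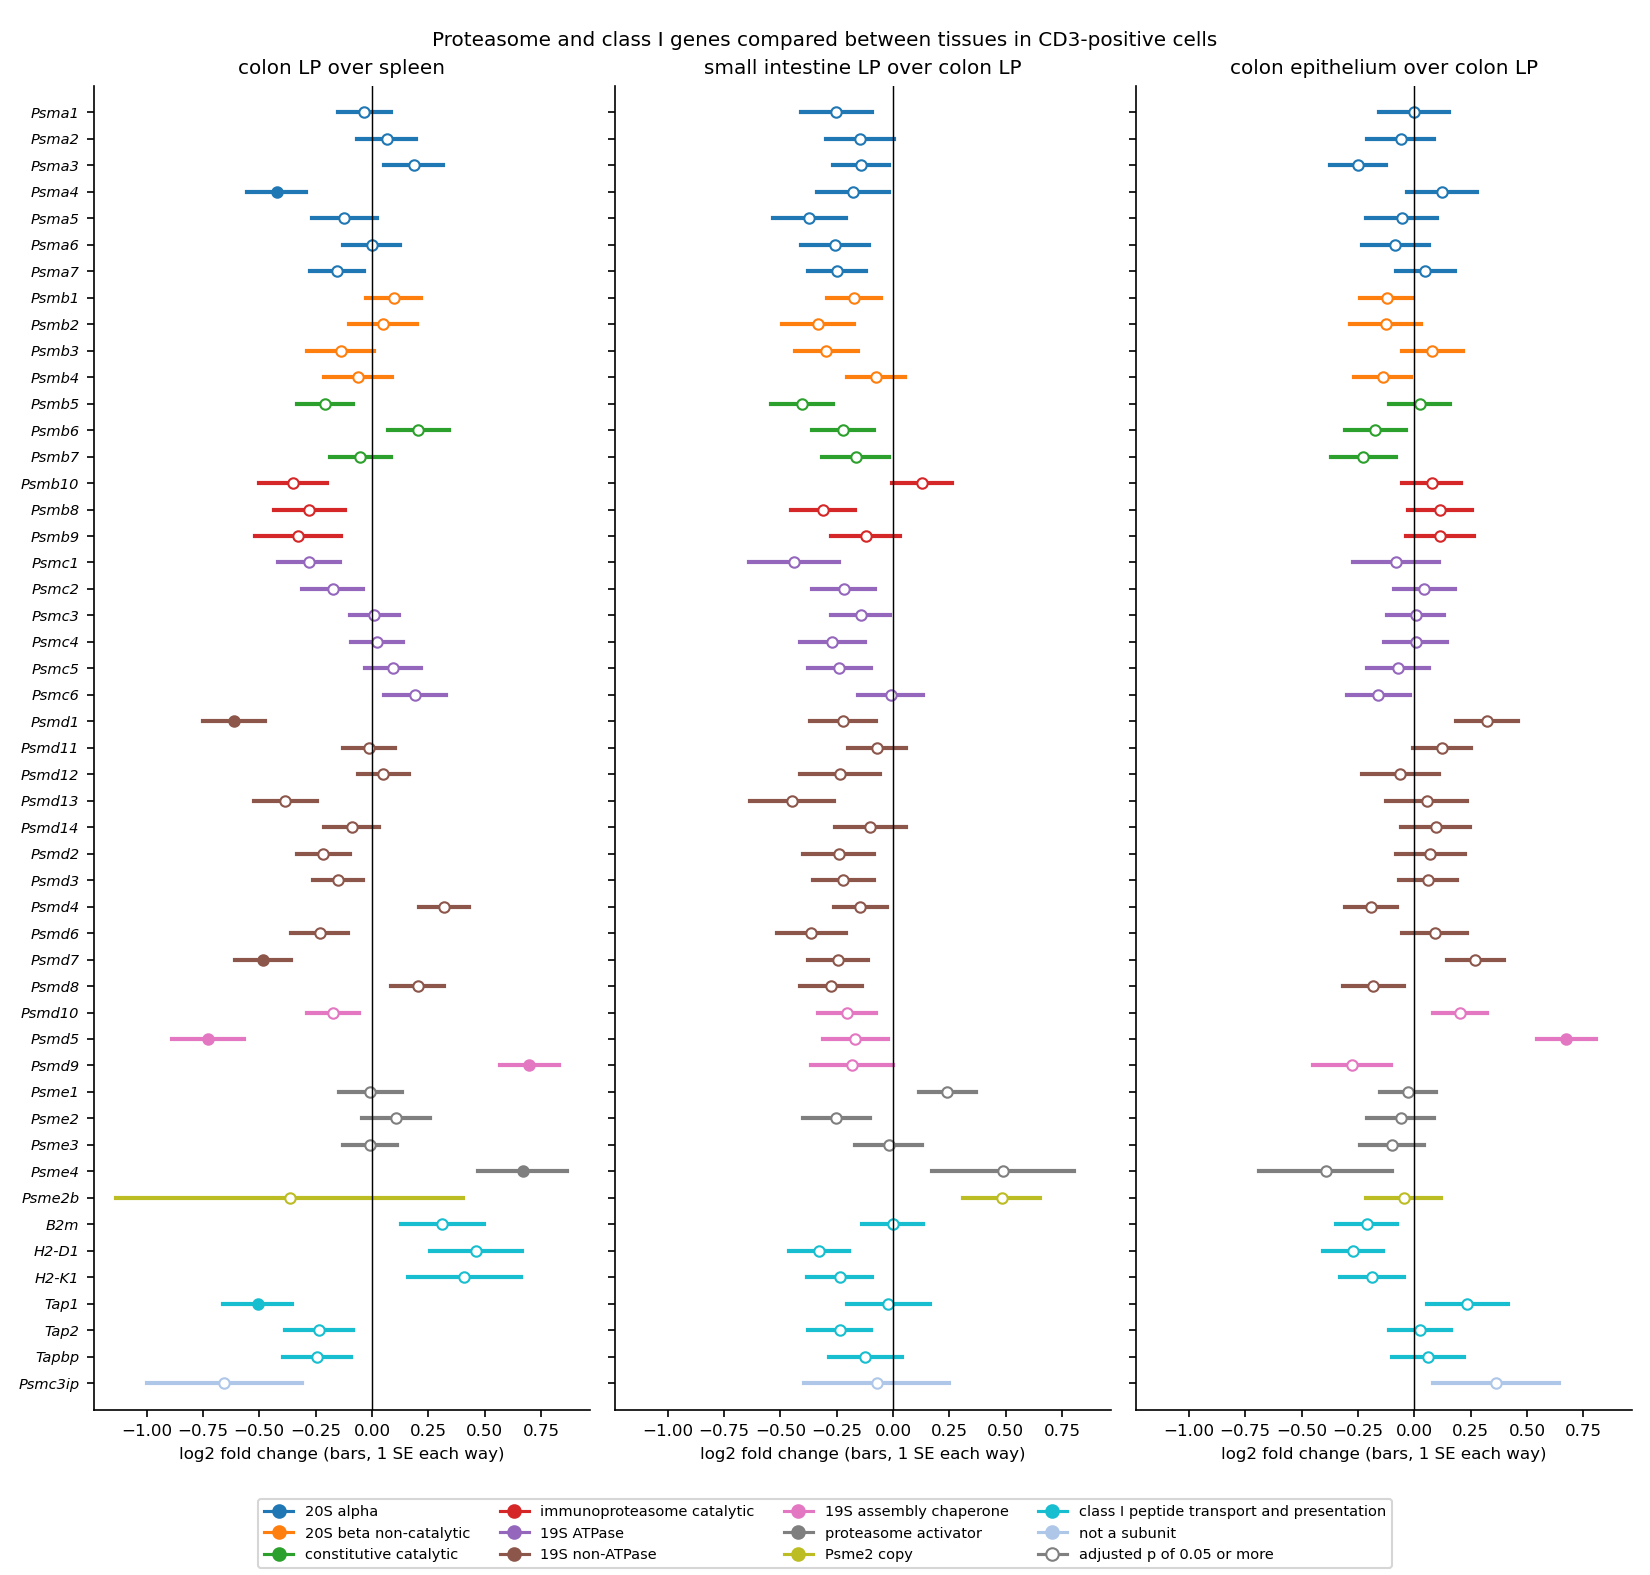
Log2 fold change (horizontal axis, bars of 1 SE each way) of the 49 tested members (rows, coloured by role) for colon LP over spleen, small intestine LP over colon LP and colon epithelium over colon LP, with filled points past an adjusted p of 0.05. The first panel has 7 filled points, the second has none with 45 of 49 below 0, and the third has Psmd5.

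Small intestine LP was compared with colon LP within batch 2, with 2 libraries per tissue and genotype as a term. By edgeR 0.00896% of all 11155 genes and 0 members passed. Before adjustment 6 members and 982 genes had an edgeR p under 0.05, and by DESeq2 0 members and 98 genes passed. Nonetheless 45 of the 49 members lay below 0 in small intestine LP, with a median of -0.22 against 0.0024 for all genes. The median was -0.10 without the small intestine LP KO library and -0.36 without the small intestine LP control library. The members below 0 included all 6 ATPases, all 11 non-ATPase subunits, all 7 alpha and all 4 non-catalytic beta subunits and all 6 class I genes, and those above 0 were Psmb10, Psme1, Psme4 and Psme2b. Some of those below 0 lay close to it, such as B2m (-0.0022, SE 0.14), Psmc6 (-0.01, SE 0.14) and Tap1 (-0.02, SE 0.18). Psmb5 stood at 168 and 124 in small intestine LP and at 205 and 182 in colon LP of batch 2 (-0.40, SE 0.14, adjusted p = 0.468). Psmd13 stood at 116 and 64.5 against 138 and 108 (-0.45, SE 0.19, adjusted p = 0.548). In each of these genes the small intestine LP KO library was the lowest of the 4, and the Psmd13 ranges overlapped. All 10 cycling genes also lay below 0 (median -0.82, none passing), and in cells with 0 cycling UMIs the members' median was -0.20.

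Colon epithelium compared with colon LP in batch 2 had a single member call. Psmd5 stood at 50.6 and 41.6 in colon epithelium and at 30.2 and 27.3 in colon LP, so it rose by 0.67 (SE 0.13, edgeR adjusted p = 0.0138), where 4.63% of all genes were higher and 7.57% lower. The call did not survive the removal of any of the 4 libraries, with adjusted p up to 0.129. The other members had a median near 0 (-0.0025 over all 49, against 0.01 for all genes), and 24 of 49 lay above 0. With library totals, 3 members were called, all higher, and the calls among all genes went from 516 higher and 844 lower to 1174 higher and 600 lower, with a median shift of 0.20. Of the pathway lists, H2-Q4 (-0.81, SE 0.14, adjusted p = 0.00905) and H2-Q6 (-0.73, SE 0.18, adjusted p = 0.0344) fell, as did Ubb (-0.67, SE 0.18, adjusted p = 0.0471). The 3 macrophage markers C1qa, C1qb and C1qc were lower as well. Ubb did not pass in the 12-library fit with the replicate number as a block (adjusted p = 0.0962). H2-Q4, H2-Q6 and Ubb had been higher in colon LP than in spleen, and the 2 comparisons share the batch 2 colon LP libraries.

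Between the batches, the 4 spleen and colon LP libraries of replicate 2 were compared with the 4 of replicate 1. No member passed (edgeR, 3.24% of all genes did, 1.14% higher and 2.1% lower), with 4 members and 2215 genes below 0.05 in unadjusted p. DESeq2 called 2 members lower, Psme2b and H2-K1, where it called 3.55% of all genes lower. The classical heavy chains lay below 0 in batch 2, H2-K1 by -0.55 (SE 0.14, adjusted p = 0.0775) and H2-D1 by -0.40 (SE 0.12, adjusted p = 0.121). H2-K1 stood at 2858, 2506, 3604 and 3709 in the batch 1 libraries of spleen control, spleen KO, colon LP control and colon LP KO, and at 1895, 2152, 1934 and 2874 in those of batch 2. Every batch 2 library was below its batch 1 counterpart of the same group, and the ranges overlapped at colon LP KO 2. Psme2b stood at 139, 182, 146 and 65.7 in batch 1 and at 25.7, 50.4, 39.0 and 50.8 in batch 2 (-1.69, SE 0.33, adjusted p = 0.0569), and it passed without either colon LP KO library (adjusted p = 0.000676 without replicate 1 and 0.000547 without replicate 2). Psme2, the gene that Psme2b copies, did not differ in step (0.07, SE 0.14, adjusted p = 0.819). Of the lists, H2-T23, a non-classical heavy chain, fell (-1.35, SE 0.14, adjusted p = 0.00274), Calr fell (-0.63, SE 0.14, adjusted p = 0.0436), and the interferon-inducible GTPases Irgm1 (-1.69, SE 0.27, adjusted p = 0.0198) and Igtp (-0.80, SE 0.17, adjusted p = 0.0378) fell, with 18 of 19 interferon-stimulated genes below 0 and 2 passing. All 10 cycling genes lay above 0 in batch 2 with none passing (median 0.99), and NK and innate lymphoid markers were lower (3 of 4 below 0, 1 passing). With library totals the all-gene median moved to 0.15, and the calls from 125 higher and 231 lower to 351 and 178.

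Most member calls came from a comparison within libraries, between cycling and non-cycling T cells. Cells with 2 or more UMIs of 10 cycling genes (Mki67, Top2a, Birc5, Cdk1, Ccnb1, Ccnb2, Ccna2, Tpx2, Ube2c and Cenpf) were summed apart from those with 0, per library, and the 10 genes were left out of the test. There were 3271 cycling cells, 22729 non-cycling cells and 3623 with 1 UMI that entered neither class. Of the 49 members, 34 were higher in cycling cells (23.5% of all 10111 genes were) and 7 were lower (32.3% of all genes), so 41 changed where 55.8% of all genes did. The median log2 fold change of the members was 0.31, against -0.09 for all genes. Most core and cap subunits rose (Psmb1, Psmb8 and Psmb10 did not pass and Psmd4 fell), and B2m, H2-K1 and H2-D1 fell.

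In the 20S core all 7 alpha subunits rose, by 0.17 to 0.61, led by Psma4 (0.61, SE 0.05, edgeR adjusted p = 1.85e-10), and 3 of 4 non-catalytic beta subunits rose, led by Psmb4 (0.54, SE 0.06, adjusted p = 4.15e-09). Psmb1 did not pass (-0.02, SE 0.05). In the cap all 6 ATPases rose, by 0.27 to 0.55, and 10 of 11 non-ATPase subunits rose. Psmd1 had a median of 85.2 CPM over the 12 libraries in cycling cells, from 58.9 to 110.5, and of 50.6, from 33.3 to 70.3, in non-cycling cells (0.78, SE 0.07, adjusted p = 9.68e-10). It was higher in cycling cells in 12 of 12 libraries, although the 2 ranges overlapped across libraries. Psmd13 (0.76, SE 0.05, adjusted p = 2.33e-12) and Psmd14, the deubiquitinase of the lid (0.65, SE 0.07, adjusted p = 4.09e-09), rose in 12 of 12 as well. The exception was Psmd4, a ubiquitin receptor, which fell (-0.18, SE 0.05, adjusted p = 0.00381) and was lower in 12 of 12 libraries. Of the chaperones only Psmd5 passed (0.37, SE 0.08, adjusted p = 0.000222), with Psmd9 at -0.07 and Psmd10 at -0.02, and its call was lost with cells thinned to equal depth (0.38, adjusted p = 0.0501).

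All 3 constitutive catalytic subunits rose in cycling cells and 1 of the 3 immunoproteasome subunits did. Psmb7 had a median of 226 (186 to 265) in cycling and of 139 (112 to 168) in non-cycling cells, with no overlap over the 12 libraries (0.70, SE 0.06, adjusted p = 1.16e-10). Psmb5 had 266 (158 to 316) against 189 (124 to 228) and was higher in 12 of 12 libraries (0.48, SE 0.05, adjusted p = 5.82e-09). Psmb6 had 304 (252 to 349) against 234 (199 to 320) and was higher in 10 (0.31, SE 0.06, adjusted p = 6.74e-05). The ranges across libraries overlapped for Psmb5 and Psmb6. Psmb8 had 928 (739 to 1348) against 1022 (740.1 to 1257) and was higher in 4 of 12 libraries (-0.02, SE 0.05, adjusted p = 0.926). Psmb10 had 217 (167 to 310) against 231 (161 to 294) and was higher in 5 (-0.03, SE 0.06, adjusted p = 0.632). Psmb9 had 354 (237 to 522) against 271 (225 to 397) and was higher in 11 (0.37, SE 0.06, adjusted p = 1.52e-05). The log2 ratio of the summed immunoproteasome to the summed constitutive subunits was lower in cycling than in non-cycling cells in 12 of 12 libraries, by a difference between -0.73 (small intestine LP KO) and -0.10 (colon LP KO 1) with a median of -0.42. Psmb8 makes up the largest part of the immunoproteasome sum. The lower ratio does not describe Psmb9 and its counterpart Psmb6, which both rose (0.37 and 0.31). The ratio was not computed with cells thinned to equal depth. The small intestine LP KO library held 18 cycling cells, so its values rest on few cells.

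**Figure D4:**
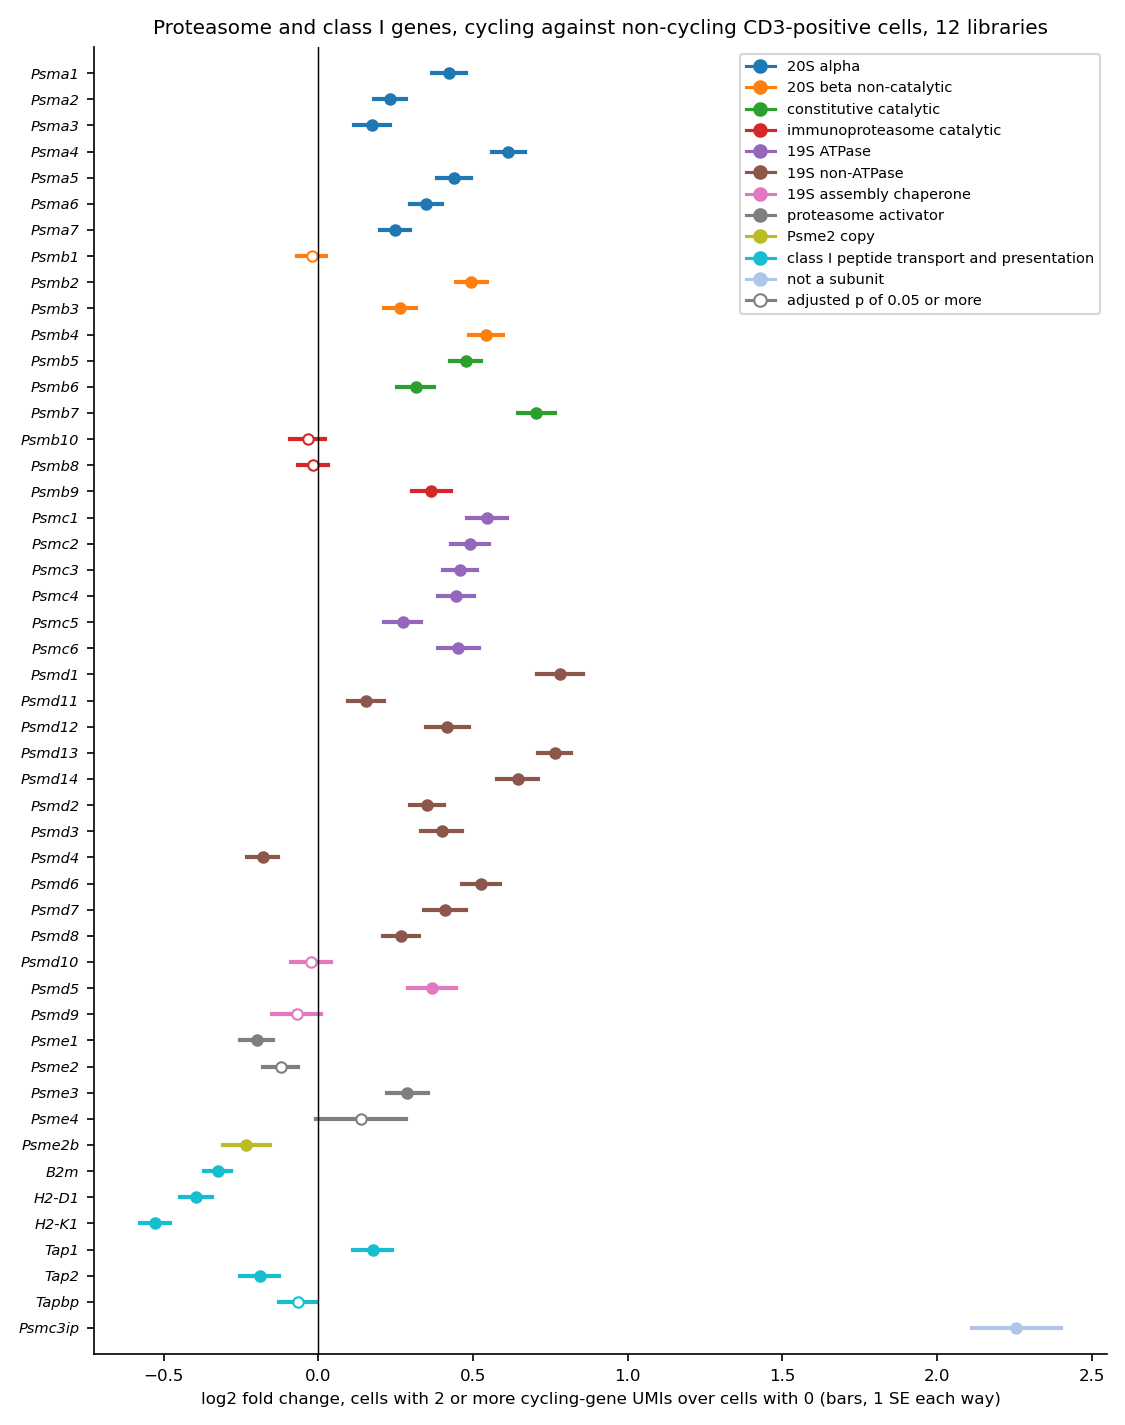
Log2 fold change, cycling over non-cycling cells (horizontal axis, bars of 1 SE each way), of the 49 tested members (rows, coloured by role) over 12 libraries with 2 sums each, with open points for an adjusted p of 0.05 or more. The alpha subunits, ATPases and most non-ATPase subunits lie right of 0, B2m, H2-D1 and H2-K1 lie left at -0.33 to -0.53, and Psmc3ip stands apart at 2.26.

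Presentation genes went down. H2-K1 had a median of 1888 (1309 to 2723) in cycling and of 2472 (2069 to 3995) in non-cycling cells and fell by 0.53 (SE 0.05, adjusted p = 3.95e-10). H2-D1 had 3211 (2234 to 4832) against 4194 (3525 to 6585) and fell by 0.40 (SE 0.05, adjusted p = 3.08e-07). B2m had 5223 (4570 to 6694) against 6798 (4993 to 8727) and fell by 0.33 (SE 0.04, adjusted p = 4.94e-07). All 3 were lower in cycling cells in 12 of 12 libraries, and their sum in cycling cells was 0.665 (small intestine LP KO) to 0.915 (spleen KO 1) of that in non-cycling cells. The transporter was split, Tap2 falling (-0.19, SE 0.06, adjusted p = 0.0123) and Tap1 rising (0.18, SE 0.06, adjusted p = 0.0192), and Tapbp did not pass (-0.07, SE 0.06). The call of Tap1 was lost without colon LP control 1, colon LP KO 2 or colon epithelium control, with adjusted p up to 0.0769. Psmb9, whose promoter window overlaps that of Tap1, rose as well. The activator gene Psme1 fell (-0.20, SE 0.05, adjusted p = 0.00247), Psme2 did not pass (-0.12, SE 0.06, adjusted p = 0.0658), and Psme3, which forms the nuclear activator PA28 gamma, rose (0.29, SE 0.07, adjusted p = 0.000527). Psmc3ip, which is no proteasome subunit, rose by 2.26 (SE 0.14, adjusted p = 2.85e-13), from a median of 3.38 (1.69 to 6.02) to 17.7 (8.05 to 29.6) with no overlap.

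**Figure D5:**
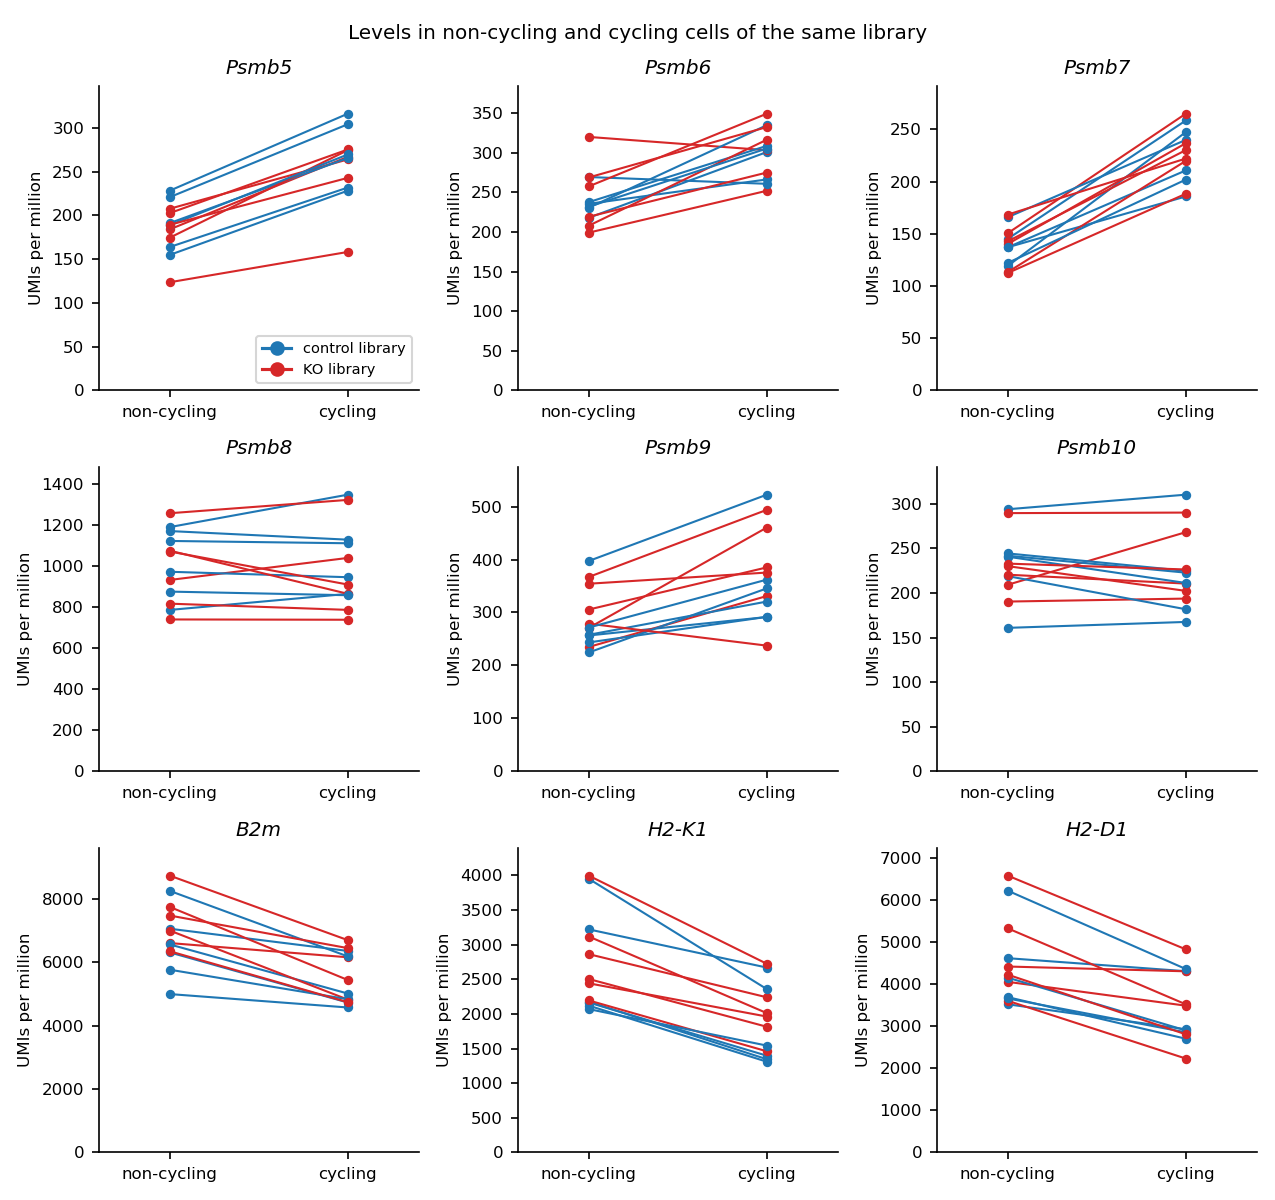
TMM-scaled CPM (vertical axis, from 0) of the 6 catalytic subunits, B2m, H2-K1 and H2-D1 in non-cycling and cycling cells (horizontal axis), with a line for each of the 12 libraries, control in blue and KO in red. Lines of Psmb5 and Psmb7 go up in 12 of 12 libraries, those of B2m, H2-K1 and H2-D1 go down in 12 of 12, and those of Psmb8 and Psmb10 go both ways.

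The cycling class is set by UMIs, and its cells were deeper. Their median was 4075 to 9910 UMIs per cell over the libraries, against 2217 to 4881 in non-cycling cells. When every cell was thinned to 1500 UMIs before it was classed, which left out 2671 shallower CD3-positive cells (0 to 626 per library), 23 members rose and 6 fell of 49, where 1312 genes rose and 2027 fell of 8616. Psmb7 (0.49, adjusted p = 3.09e-05), Psmb5 (0.36, adjusted p = 0.00208), Psmb9 (0.35, adjusted p = 0.00163), B2m (-0.46, adjusted p = 6.57e-08), H2-K1 (-0.48, adjusted p = 8.89e-08) and H2-D1 (-0.48, adjusted p = 4.63e-08) kept their calls. Psmb6 (0.16, adjusted p = 0.204), Tap1 (0.23, adjusted p = 0.0769), Tap2 (-0.11, adjusted p = 0.435), Psmd5, Psmb3, Psmd8, Psmd11, Psme2b and the alpha subunits Psma2, Psma3, Psma5, Psma6 and Psma7 did not, while Psme2 passed (-0.27, adjusted p = 0.0147). With library totals in place of TMM, Psmd4, Psme1, Psme2b and Tap2 lost their calls, and 34 members rose and 3 fell. Of all 10111 genes 2818 rose and 2659 fell on that scale, where TMM gave 2379 and 3266. All 6 T cell markers were lower in cycling cells (median -0.51).

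The lists around the members split in the same cells. Of 14 assembly and regulation genes 8 rose, among them the 20S maturation factor Pomp (0.32, SE 0.06, adjusted p = 3.63e-05), Uchl5 (0.94, SE 0.08, adjusted p = 1.68e-10) and Usp14 (0.46, SE 0.09, adjusted p = 0.000143), the last 2 being deubiquitinases that bind the cap. Nfe2l1, the transcription factor of proteasome genes, and Psmg4 fell. Of 8 loading and trimming genes 5 rose (Calr, Canx, Pdia3, Erap1 and Lap3), the general endoplasmic reticulum chaperone Canx by 0.48 (SE 0.07, adjusted p = 8.94e-07), and Tapbpl, which edits class I peptides, fell (-0.38, SE 0.08, adjusted p = 0.000232). All 10 other class I heavy chains tested fell, H2-Q4 by 0.70 (SE 0.06, adjusted p = 1.68e-10) and H2-Q6 by 0.64 (SE 0.06, adjusted p = 7.05e-10). Of 13 interferon signalling genes 11 fell, with Irf7 at -0.85 (SE 0.09, adjusted p = 4.44e-09), and of 19 interferon-stimulated genes 15 fell, with Igtp at -0.60 (SE 0.07, adjusted p = 9.55e-08). Of 11 ubiquitin and shuttle genes 5 rose, with Uba1 at 0.40 (SE 0.06, adjusted p = 1.74e-06), and 4 fell, Ubb and Isg15 among them.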

How the data were processed

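Per the labels, the authors made 10x Chromium 3′ version 2 libraries, with Cell Ranger 2.0.2 and mm10 listed in the submitters' processing notes. The authors deposited counts, as whole-number UMIs per gene and cell without normalization. For cell and gene filters, a description was not given in the sources used here. A deposited cell table gave each cell's library and batch, and its 2 columns of genotype and tissue were not used. Doublets were not called here. The members, lists and tests were chosen with earlier results of these data known, and named genes follow a rule (14 class I, catalytic and activator genes always, up to 6 members each way past the threshold or else the 3 with the smallest p each way, and up to 3 genes per list). Some genes of the lists are not reported here. Outside it, and chosen after their values were seen, are Psmb1, Psmb4, Psmc1, Psmd10, Psmd14 and Psme3, and Psmd5, Psmd9 and Psmd13 where they are given beyond the comparison that named them.

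Counts of CD3-positive cells were summed per library, filtered with filterByExpr, scaled by TMM (factors 0.844 to 1.13 over the 12 libraries) and compared with edgeR 4.0.16 (quasi-likelihood test, robust, R 4.3.3), Benjamini-Hochberg adjusted over all genes, with a threshold of 0.05. Each SE is the size of the log2 fold change over the square root of F. Spleen and colon LP were fitted together (8 libraries), small intestine LP and colon epithelium against colon LP within batch 2 (8 libraries), cycling against non-cycling cells with library as a term. DESeq2 1.42.0, library totals, DESeq2 size factors, other cell choices, thinning, a replicate block and leaving out libraries were alternatives. The scripts were tested on simulated data. The batch column equalled the replicate number, and deviations from the group means correlated between libraries sharing a number (0.238 to 0.461, 6 pairs). The replicate numbers were therefore used to form the pairs of libraries and as a block in alternative fits. The main fits of KO against control and of colon LP against spleen had no replicate term, so their p-values do not use the pairing. Depth sets the counting error, and a difference between libraries includes preparation and sequencing.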

Additional observations from a re-analysis of the deposited data

How the results depend on the processing

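The count of members past an adjusted p of 0.05 stayed at 0 in every alternative run for KO in colon LP (14 alternatives), KO in spleen (14), their difference (18), KO over all tissues (22), the KO effect by batch (9, that comparison and the alternatives with library totals having been added after seeing the data) and small intestine LP against colon LP (14). These zeros do not show stability. The comparisons had 2 libraries a group, except KO over all tissues, which had 6 libraries a genotype. For colon LP against spleen the count was 7 and ran from 1 to 10 when a library was left out (1 without spleen control 1, 2 without spleen KO 2, 3 without either colon LP KO library, 4 without spleen KO 1, spleen control 2 or colon LP control 1, 10 without colon LP control 2) and from 5 to 10 in the others. With the replicate block it was 10, and the block changed no member call in the other comparisons. The colon LP against spleen count over all genes, 3262 of 10976 in the main fit, moved too. With a library left out it ran from 1793 of 11547 (without spleen control 1) to 3596 of 11279 (without colon LP control 2). In the other alternatives it ran from 2590 of 9985 with thinned cells to 4383 of 10976 with the replicate block. For colon epithelium against colon LP the count of 1 became 3 with library totals and 0 after removal of any of its 4 libraries. For replicate 2 against replicate 1 the count of 0 became 2 with DESeq2, 1 without the filter on low counts, 2 with cells thinned to equal depth, and 0 to 1 when a library was left out. Of all genes, DESeq2 called 629, the fit without the filter 631 and the fit with thinned cells 339, against 356 in the main fit. For cycling cells the 41 became 29 with thinned cells and stayed at 39 to 42 when a library was left out. No named gene that passed changed sign while passing. Depth limits Psme4 and Psmc3ip most, and the cause of the changes was not tested.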
